A study of Rattus norvegicus with 4 samples.

Results

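Circular RNAs (circRNAs) are made when a downstream splice site is joined back to an upstream one, and the reads that cross this back-splice junction count the circle. The circRNAs described here come from host genes of endosomes and membrane traffic in the sciatic nerve of the rat. They were taken by gene symbol, as rows with 1 host gene whose symbol begins with Vps, Snx, Dennd, Rab and a digit, Rabgap, Tbc1d, Evi5, Exoc, Sec and a digit, Stx, Cog and a digit, Ap1 to Ap5, Vti1, Wdfy, Pikfyve, Ehbp or Copb, with Picalm left out. The rule took 192 circRNAs of 4942, from 74 host genes of 2327. No Vti1 or Copb gene was listed. The prefixes also took a few genes that are not the protein class they name: Rab3gap1 and Rab3ip regulate Rab proteins, Stxbp3 and Stxbp5 bind syntaxins, Ap1ar is a regulator of an adaptor complex, and Sec14l5 belongs to a family of lipid-binding proteins.

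Sprague-Dawley rats at postnatal week 6 had the nerve crushed over 3 mm or only exposed (sham). The crush was given 2 times, for 15 s each with a gap of 3 s, and nerve was collected at 24 h as the crushed stretch plus 1 mm at either end. Total RNA was sequenced from 2 crush and 2 sham libraries, with totals of 8250 and 9027 junction reads for crush and of 9018 and 8726 for sham, so every value rests on few reads. No genotype, transgene or drug is named for either group, and no label states that a group's libraries are from different animals. The p-values therefore reflect the spread among these 4 libraries alone, which may be technical.

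Membrane traffic moves receptors, lipids and enzymes between the cell surface, endosomes, lysosomes and the Golgi. Rab proteins are small GTPases that mark each compartment. DENN-domain proteins switch Rabs on by exchanging their nucleotide, and proteins with a TBC domain switch them off. Sorting nexins and the retromer sort cargo out of endosomes, adaptors and coats build vesicles, tethers catch them and SNAREs fuse them. In nerve this machinery carries growth factor receptors and membrane along axons, and supplies membrane in Schwann cells. These are roles of the proteins, and circRNA reads measure neither the linear messenger RNA nor the protein.

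As a whole the traffic hosts gave similar numbers of junction reads after crush and after sham. The crush libraries (replicate 1, then 2) had 316 and 305 such reads, the sham libraries 253 and 330. For crush that was 3.83% (95% interval 3.43% to 4.27%) and 3.38% (3.02% to 3.77%) of all junction reads, and for sham 2.81% (2.47% to 3.17%) and 3.78% (3.39% to 4.20%). The intervals are exact Clopper-Pearson intervals and cover counting error only. Crush averaged 3.60% ± 0.32 and sham 3.29% ± 0.69 (SD, n = 2), a difference smaller than the spread between the sham libraries (two-sided exact permutation p = 0.667, where 2 against 2 cannot go below 0.333). Summed SRPBM differed the other way, at 20.6 ± 3.30 for crush and 22.2 ± 5.32 for sham, again by less than the spread (difference -1.62, exact permutation p = 0.667). In whole nerve, fewer cells of a type and less RNA per cell cannot be told apart.

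No traffic host passed the host gene test. Junction reads were summed per host and tested where at least 5 reads were present in at least 2 libraries (edgeR quasi-likelihood test over all hosts, Benjamini-Hochberg adjusted p under 0.05). Of the 74 hosts, 17 could be tested and 0 passed, beside 2.3% of all 434 hosts tested (1.84% higher and 0.461% lower after crush). An unadjusted p under 0.05 was reached by 2 of the 17, Dennd4a and Stxbp5, beside 25.6% of all hosts tested. With RLE size factors, SRPBM library totals, DESeq2 or the replicate number as a block, 0 of the 17 passed either, beside 2.76%, 3.23%, 7.37% and 5.53% of all hosts. On exonic circRNAs alone 0 of 15 passed, beside 5.01%, and without crush replicate 1 it was 0 of 14, beside 3.33%. Of the 17, 10 were higher and 7 lower after crush, with a median log2 change of 0.49 beside 0.11 over all hosts tested. With library totals taken from the deposited SRPBM scale in place of TMM scaling, these medians were 0.09 and -0.30 and 9 of the 17 were higher. Setting hosts with a group at 0 to their bounds left both medians at 0.49 and 0.11.

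**Figure D1:**
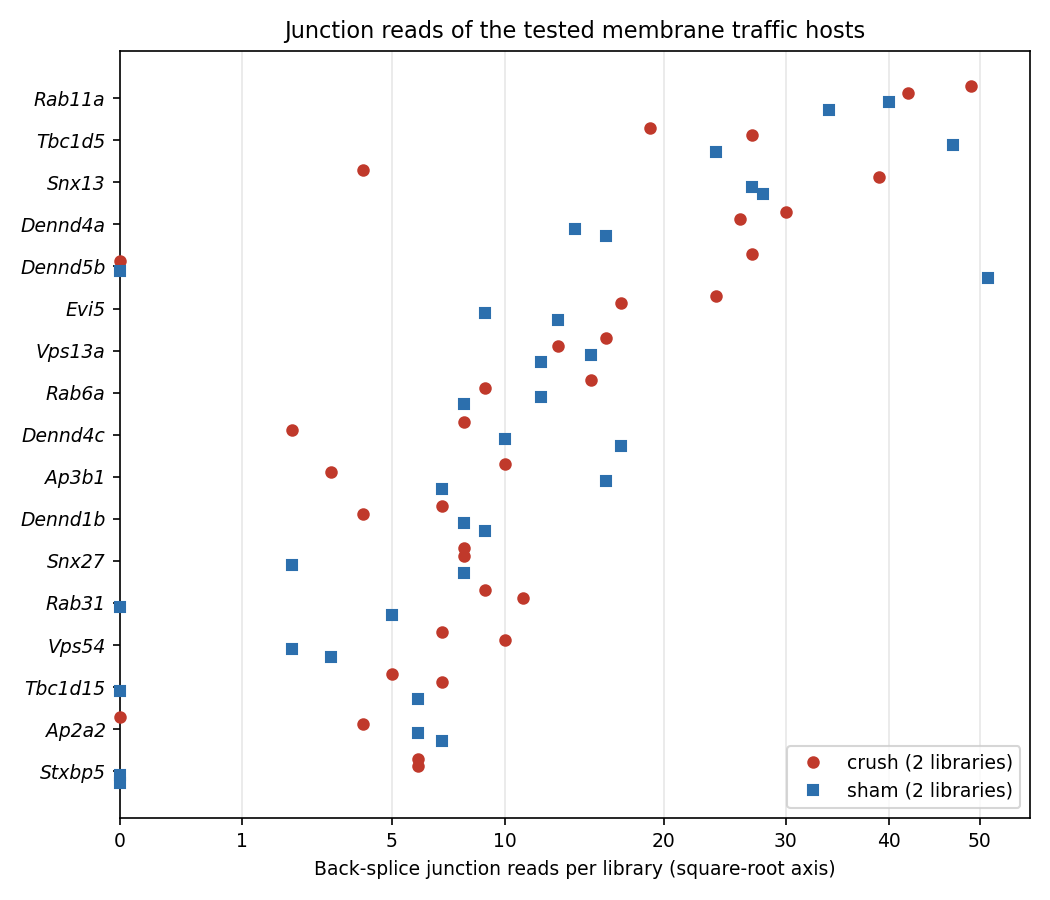
Back-splice junction reads of the 17 tested traffic hosts in each of the 2 crush (circles) and 2 sham (squares) libraries, on a square-root axis, with replicate 1 drawn above replicate 2. Dennd5b lies at 0 in 1 library of each group and at 27 and 51 in the other libraries, and Stxbp5 lies at 6 in both crush libraries and at 0 in both sham libraries.

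The reads were concentrated on few hosts. Rab11a, Tbc1d5 and Snx13 held 380 of the 1204 junction reads (31.6%), and the 14 hosts with at least 20 reads held 881 (73.2%). The other 60 hosts had 2 to 18 reads with a median of 4, and 21 hosts had 2 reads in all. Of the 192 circRNAs, 84 had 2 reads in all. Only 13 hosts had reads in every library.

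The role of Rab GTPases, taken by symbol, had 10 hosts and 16 circRNAs. These include the Rab regulators Rab3gap1 (0 and 4 reads in crush libraries) and Rab3ip (3 and 0), neither listed in sham. In all, the role had 78 and 73 reads in crush libraries, against 52 and 52 in sham libraries. Most came from Rab11a (ENSRNOG00000011302), the GTPase of recycling endosomes, which return receptors to the cell surface. Rab11a had 49 and 42 reads in crush libraries, against 40 and 34 in sham libraries. Both crush libraries lay above both sham libraries in reads, and the groups overlapped in SRPBM, at 3.03 ± 0.74 after crush against 2.79 ± 0.17 after sham (SD, n = 2). The log2 change of 0.52 ± 0.36 (SE) did not pass (adjusted p = 0.406, edgeR). An exonic circle on the minus strand of chromosome 8, 70203322 to 70206310 in the build Rnor_6.0, carried 46, 39, 40 and 34 of these reads. In SRPBM the groups overlapped, with 2.83 ± 0.71 SRPBM after crush and 2.79 ± 0.17 after sham. A longer circle from the same upstream splice site, 70194477 to 70206310, had 3 and 3 reads after crush and was not listed in sham.

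Rab6a (ENSRNOG00000018176), a GTPase of the Golgi, gave 1 circle, exonic, on chromosome 1 at 165646261 to 165654319. It had 15 and 9 reads in crush libraries, against 12 and 8 in sham libraries, and the groups overlapped (log2 change 0.49 ± 0.57, adjusted p = 0.651, edgeR). Rab31 (ENSRNOG00000042189), which acts between the trans-Golgi and endosomes, had 9 and 11 reads in crush libraries, against 0 and 5 in sham libraries over 5 circRNAs. Both crush libraries lay above both sham libraries, at 0.655 ± 0.004 against 0.197 ± 0.278 SRPBM, and the log2 change of 2.13 ± 1.13 did not pass (adjusted p = 0.284). With 1 library left out its log2 change ranged from 0.97, without sham replicate 1, to 6.40, without sham replicate 2. Sham replicate 2 held all its sham reads. Without that library Rab31 met the read filter through the crush libraries alone. The sham group is then at 0 and the fitted value is no bound. Its main circle, at chromosome 9, 113386175 to 113416653, gave 7 and 4 reads in crush and 0 and 3 in sham libraries. The 7 other hosts of this role, which include the late endosome GTPase Rab7a and the exocytic Rab8b, had 2 to 4 reads each.

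The DENN-domain exchange factors, 7 hosts with 25 circRNAs, differed more between replicates than between groups, at 74 and 32 reads in crush libraries, against 32 and 103 in sham libraries. Most of this spread lay in Dennd5b (ENSRNOG00000049378), a member of the DENN family. Dennd5b had 27 and 0 reads in crush libraries, against 0 and 51 in sham libraries. Nearly all lay on 1 intronic circle of the minus strand, chromosome 4, 183498456 to 183537970, with 27, 0, 0 and 48 reads. Each group thus held a library with many reads and a library at 0, and the log2 change of -0.70 ± 1.79 had the largest standard error of the 17 hosts (adjusted p = 0.851, edgeR). Its sign turned without crush replicate 2, to 0.50. For the circle alone, leaving out sham replicate 1 gave a log2 change of -1.74 (adjusted p = 0.0350, edgeR), in a fit that called 23.8% of 320 circRNAs. Leaving out crush replicate 2 turned it to 0.51.

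Dennd4a (ENSRNOG00000011739), an exchange factor for Rab10, had 30 and 26 reads in crush libraries, against 14 and 16 in sham libraries. The groups did not overlap in reads or in SRPBM, at 1.86 ± 0.44 against 1.14 ± 0.17 SRPBM (SD, n = 2). The log2 change of 1.11 ± 0.45 had an unadjusted p of 0.0469 and did not pass (adjusted p = 0.189, edgeR). It ranged from 0.79 to 1.44 when 1 library was left out, and was above 0 under every alternative run. Among all hosts tested, 33.9% had both crush libraries above both sham libraries on the TMM scale.

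Most Dennd4a reads lay on circles that begin at 1 splice site. Of its 13 circRNAs, on the plus strand of chromosome 8, 5 had their upstream edge at 70339051 and held 70.9% of the host's reads. Together these 5 had 20 and 22 reads in crush libraries, against 8 and 11 in sham libraries. They ended at 70343296 (4, 4, 4 and 0 reads in crush replicates 1 and 2 and sham replicates 1 and 2), at 70347005 (5, 5, 0 and 2), at 70352964 (6, 6, 4 and 3), at 70367391 (3, 7, 0 and 6) and, in an intronic circle, at 70367410 (2, 0, 0 and 0). The circle ending at 70347005 had a log2 change of 2.37 ± 1.07 (adjusted p = 0.230, edgeR), that ending at 70352964 of 0.97 ± 0.73 (adjusted p = 0.477) and that ending at 70367391 of 0.88 ± 1.38 (adjusted p = 0.787). The sign of the last turned without sham replicate 1, to -0.20. Dennd4a and Rab11a lie on the same chromosome, with 111966 bases between their nearest listed circRNAs and on opposite strands.

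Dennd4c (ENSRNOG00000008036), a close relative of Dennd4a, had a fitted change of the other sign. It had 8 and 2 reads in crush libraries, against 10 and 17 in sham libraries. Both crush libraries lay below both sham libraries in reads and in SRPBM, at 0.350 ± 0.326 against 1.03 ± 0.43 SRPBM. On the TMM scale the groups overlapped. The log2 change of -1.20 ± 0.79 did not pass (adjusted p = 0.389, edgeR). It was -2.42 without crush replicate 1 and -0.31 without crush replicate 2. Of its 3 circles on chromosome 5, 2 ended at 105187360 and held 81.1% of the reads. The shorter, from 105185997, had 3 and 2 reads against 5 and 6, and the longer, from 105182877, had 5 and 0 against 2 and 7. The log2 change of the longer turned from -0.63 to 0.51 without crush replicate 2. Dennd1b (ENSRNOG00000011063), an exchange factor for Rab35, had 7 and 4 reads in crush libraries, against 8 and 9 in sham libraries. Its crush libraries also lay below its sham libraries in SRPBM, at 0.373 ± 0.190 against 0.645 ± 0.088, and overlapped them on the TMM scale. The log2 change was -0.40 ± 0.72 (adjusted p = 0.780, edgeR), and the sign turned without crush replicate 2, to 0.16. Its main circle, chromosome 13, 56114438 to 56129496, gave 4 and 4 reads in crush and 8 and 3 in sham libraries. Dennd1a, Dennd3 and Dennd6a had 2 to 8 reads each.

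The Rab GTPase-activating proteins, 11 hosts with 37 circRNAs, had 63 and 57 reads in crush libraries, against 73 and 45 in sham libraries. Tbc1d5 (ENSRNOG00000010637), which acts on Rab7 together with the retromer, had 19 and 27 reads in crush libraries, against 47 and 24 in sham libraries. The groups overlapped in reads but not in SRPBM, at 1.38 and 1.61 against 3.42 and 1.89, and the log2 change of -0.40 ± 0.47 did not pass (adjusted p = 0.650, edgeR). Of its 7 circRNAs, 3 ended at the same downstream site of chromosome 9, 1485363, and held 91.5% of its reads. The main circle from 1473647 had 16 and 18 reads against 31 and 15, and its change turned from -0.19 to 0.24 without sham replicate 1. The longer exonic circle from 1442054 had 3 and 4 reads against 10 and 6 (log2 change -0.94 ± 0.73, adjusted p = 0.497).

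Evi5 (ENSRNOG00000002039), a TBC-domain protein known to bind Rab11, had the most circRNAs of the traffic hosts, with 14. It had 24 and 17 reads in crush libraries, against 9 and 13 in sham libraries. Both crush libraries lay above both sham libraries in reads and overlapped them in SRPBM, at 1.38 ± 0.51 against 0.839 ± 0.259. The log2 change of 1.10 ± 0.54 did not pass (adjusted p = 0.248, edgeR). Of the 14 circles, 11 were listed in 1 library only, 8 in crush alone, 4 in sham alone and 2 in both groups.

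A short exonic circle of Evi5 came nearest to the threshold of all traffic circRNAs. It spans chromosome 14, 2944122 to 2946057, on the plus strand, a stretch of 1935 bases of genome. It had 9 and 6 reads after crush and was listed at 0 in both sham libraries, at least 2.23-fold higher in SRPBM taking 3 reads as the floor of a library at 0. The crush libraries alone brought it past the read filter of the test. The adjusted p was 0.0550 in the circRNA test (edgeR), 0.0422 with RLE size factors, 0.0431 with SRPBM library totals and 0.0348 without sham replicate 1. It was 0.0536 with no filter, 0.0772 without sham replicate 2, 0.0944 with DESeq2, 0.135 with at least 2 reads in 2 libraries and 0.491 with the replicate number as a block, and so did not pass there. Of 192 traffic circRNAs 12 had enough reads to be tested and 0 passed, beside 11.9% of all 428 tested (7.48% higher and 4.44% lower), and 1 had an unadjusted p under 0.05, beside 27.8%. DESeq2 also called 0 of the 12, beside 6.54%, and with no filter 0 of 192 passed, beside 1.05%. With at least 2 reads in 2 libraries, and with the replicate number as a block, no circRNA of any gene passed (0 of 1355 and 0 of 428). The fits in which the Evi5 circle passed called 14%, 13.8% and 23.8% of all circRNAs tested. Without crush replicate 1 it had too few reads to be tested, and 0 of the 7 traffic circRNAs that were tested passed, beside 1.87%. Of the 12, 4 had both crush libraries above both sham libraries on the TMM scale, beside 30.1%, and 2 the reverse, beside 28%. The same upstream site was used by a longer circle, to 2955913, with 4 and 0 reads against 3 and 3, and by another, to 3011669, with 0 and 4 reads after crush alone. Another upstream site, 2924636, began 6 of the 14 circles and had 8 and 2 reads against 3 and 4.

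**Figure D2:**
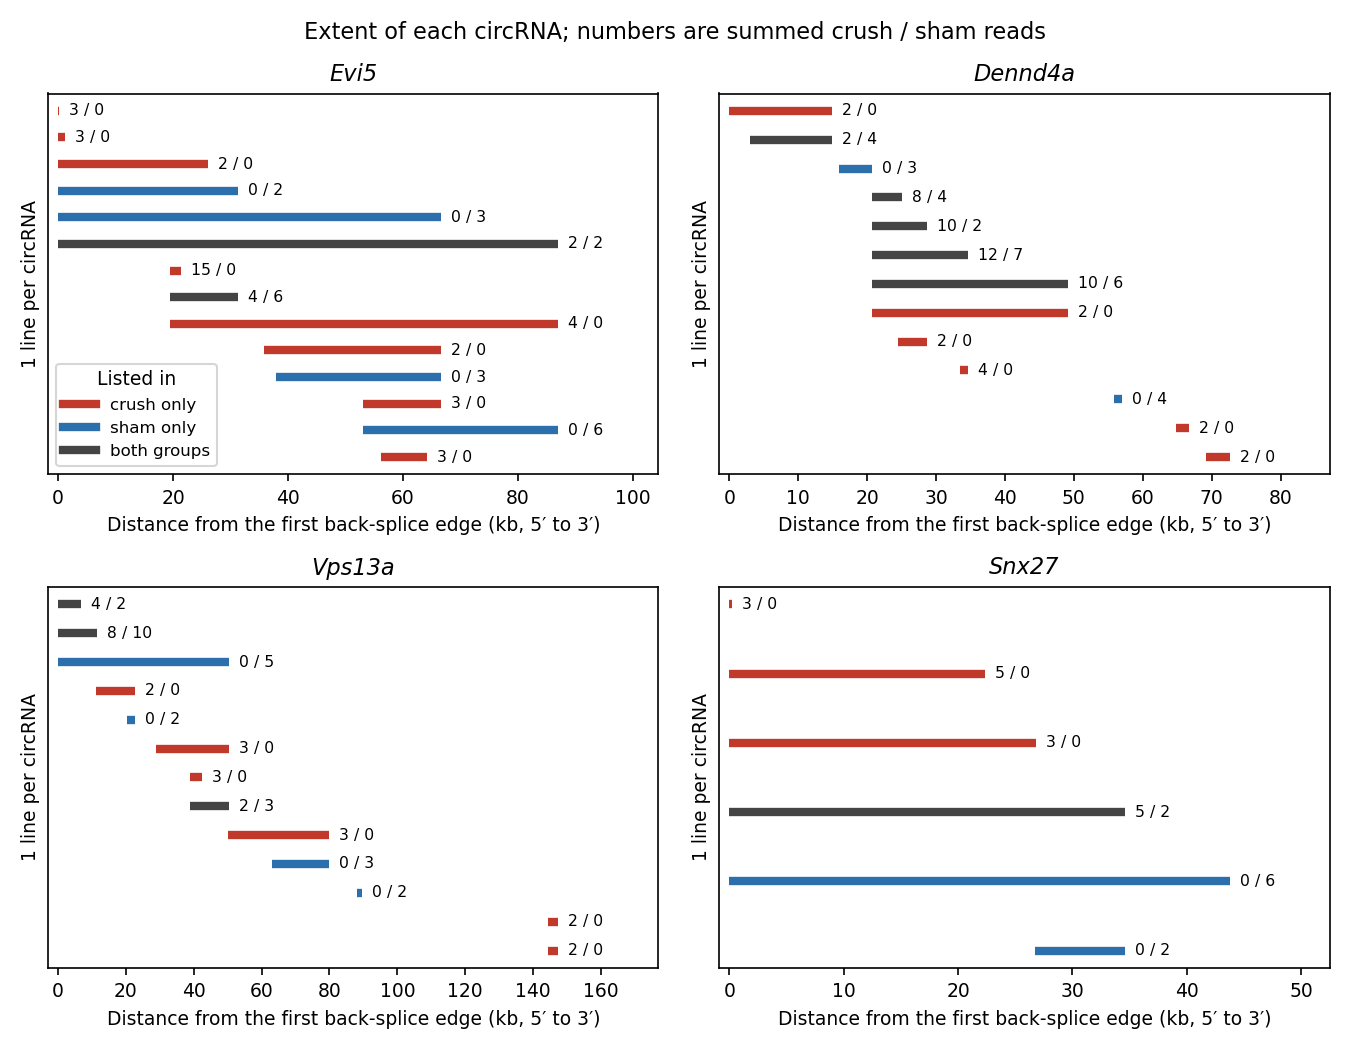
Extent of every circRNA of Evi5, Dennd4a, Vps13a and Snx27, as distance in kb from the first back-splice edge in the direction of transcription, 1 line per circRNA, coloured by the groups that list it, with the summed crush and sham reads beside it. Lines that begin together share an upstream splice site, as 5 of the 13 Dennd4a circles and 5 of the 6 Snx27 circles do.

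Outside the naming rule, Tbc1d15 and Tbc1d8 are given because of their values. Tbc1d15, a Rab7 GTPase-activating protein, had 5 and 7 reads in crush libraries, against 0 and 6 in sham libraries (log2 change 1.14 ± 1.28, adjusted p = 0.628, edgeR). Without sham replicate 2, which held all its sham reads, it met the read filter through the crush libraries alone. Its log2 change was then 5.68, a fitted value that is no bound, as the sham group is at 0. Tbc1d8 had 9 and 4 reads after crush and was not listed in sham, and too few of its libraries reached 5 reads for a test.

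The sorting nexins, 10 hosts with 26 circRNAs, had 19 and 59 reads in crush libraries, against 43 and 52 in sham libraries. Snx13 (ENSRNOG00000004186), a sorting nexin with an RGS domain, held most of them, with 4 and 39 reads in crush libraries, against 27 and 28 in sham libraries. An exonic circle at chromosome 6, 54522274 to 54530157, had 0 and 36 reads in crush libraries, against 25 and 26 in sham libraries. The sham libraries were nearly equal, and the crush libraries lay on either side of them. The host's log2 change of -0.18 ± 0.86 (adjusted p = 0.944, edgeR) became 0.77 without crush replicate 1. For the circle alone the change was -0.30 ± 1.44. It was 0.74 without crush replicate 1 and -7.57 without crush replicate 2, the latter past the threshold (adjusted p = 0.0175, edgeR, in a fit that called 1.88% of all circRNAs tested), where the crush group is then at 0. The 36 reads were 0.399% of the reads of crush replicate 2, and a count of 0 in crush replicate 1 allows a share of up to 0.0364% if the listed 0 means no reads.

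A case here is a traffic circRNA with at least 20 reads in a library, compared with the other library of its group. Such all-or-none values occurred in 3 of 10 cases, 2 of them for the Dennd5b circle and 1 for the Snx13 circle. All 10 cases came from the most read circles of Rab11a, Snx13, Dennd5b and Tbc1d5 and were thus not independent. Over circRNAs of the other host genes it was 11 of 132 cases, and the difference was not tested. A count in these files was 0 or at least 2, so a 0 means that the circRNA was not reported there.

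**Figure D3:**
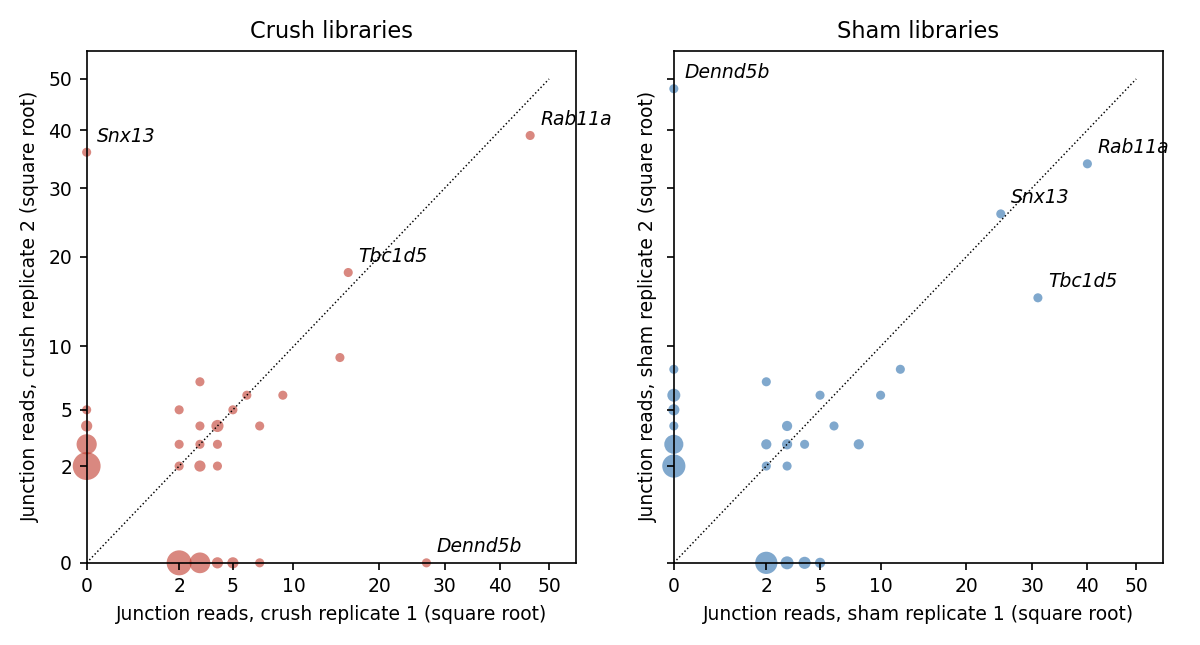
Junction reads of traffic circRNAs in replicate 1 (horizontal) against replicate 2 (vertical) of each group, on square-root axes, where larger points stand for more circRNAs at the same values and the dotted line marks equal reads. The Snx13 circle lies at 0 and 36 in the crush libraries and near the line at 25 and 26 in sham, and the Dennd5b circle lies on an axis in both groups.

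Snx27 (ENSRNOG00000020893), which recycles receptors from endosomes together with the retromer, had 8 and 8 reads in crush libraries, against 2 and 8 in sham libraries. The groups overlapped in reads (log2 change 0.86 ± 0.86, adjusted p = 0.575, edgeR), and the sign turned without sham replicate 1, to -0.01. Of its 6 circRNAs on the minus strand of chromosome 2, 5 shared the upstream edge at 195795666 and held 92.3% of its reads. Of these 5, 4 were listed in 1 library, so the same upstream site was read in all 4 libraries while the downstream partner differed. The other 8 sorting nexins had 2 to 14 reads, the most for Snx14, with 2 and 3 reads against 0 and 9.

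The VPS13 lipid transfer proteins had 18 and 15 reads in crush libraries, against 15 and 17 in sham libraries. Vps13a (ENSRNOG00000025539), a bridge-like protein that moves lipids between membranes and whose loss causes chorea-acanthocytosis, gave 13 circRNAs, all exonic. It had 16 and 13 reads in crush libraries, against 15 and 12 in sham libraries, and the groups overlapped in reads and SRPBM but not on the TMM scale, where crush lay above sham (log2 change 0.32 ± 0.49, adjusted p = 0.734, edgeR). With SRPBM library totals the change was -0.08. Its most read circle, on the minus strand of chromosome 1, 235789223 to 235800597, gave 4 and 4 reads in crush and 6 and 4 in sham libraries and was listed in every library. The 3 circles that share its upstream edge held 51.8% of the reads, with 4 and 8 against 8 and 9. Of the 13 circles, 10 were listed in 1 library.

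The other VPS genes, 7 hosts with 18 circRNAs, had 12 and 26 reads in crush libraries, against 6 and 15 in sham libraries. Vps54 (ENSRNOG00000007125), a subunit of the GARP tether between endosomes and the trans-Golgi and the gene mutated in the wobbler mouse, had 7 and 10 reads in crush libraries, against 2 and 3 in sham libraries. Both crush libraries lay above both sham libraries, at 0.553 ± 0.064 against 0.191 ± 0.064 SRPBM (SD, n = 2). The log2 change of 1.91 ± 0.81 did not pass (adjusted p = 0.202, edgeR). Of its 5 circles, 4 began at chromosome 14, 106153575, with 4 and 10 reads against 2 and 3. The circle from there to 106161579 had 4 and 2 reads against 2 and 3, and so was even between the groups, and the rest of the difference lay in 4 circles listed in 1 crush library each. The 6 others, which include the retromer genes Vps35 and Vps26a, the HOPS genes Vps33a and Vps41 and the CORVET gene Vps8, had 2 to 12 reads.

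The coats and adaptors, 15 hosts with 28 circRNAs, had 32 and 21 reads in crush libraries, against 26 and 24 in sham libraries. Ap3b1 (ENSRNOG00000010624), the beta subunit of the AP3 adaptor of lysosome-bound cargo, had 10 and 3 reads in crush libraries, against 16 and 7 in sham libraries over 8 circRNAs (log2 change -0.57 ± 0.79, adjusted p = 0.704, edgeR). The sign turned without crush replicate 2, to 0.25. Its most read circle, chromosome 2, 24067948 to 24083767, gave 0 and 3 reads in crush and 8 and 3 in sham libraries. Ap2a2, an alpha subunit of the AP2 adaptor of clathrin endocytosis and outside the naming rule, had 0 and 4 reads in crush libraries, against 6 and 7 in sham libraries, without overlap (log2 change -1.46 ± 1.24, adjusted p = 0.501, edgeR). It was the only 1 of the 17 tested traffic hosts with both crush libraries below both sham libraries on the TMM scale, beside 28.1% of all hosts tested. On that scale 8 of the 17 had the reverse, beside 33.9%. The split depended on the scaling, as in SRPBM 4 of the 17 lay above and 4 below. The 13 untested hosts, among them the COPII genes Sec23a, Sec23b, Sec24a, Sec24b, Sec24d and Sec31a, had 2 to 7 reads each.

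The syntaxins and their binding proteins, 5 hosts with 7 circRNAs, had 9 and 11 reads in crush libraries, against 0 and 2 in sham libraries. Stxbp5 (ENSRNOG00000013351), which encodes tomosyn, a protein that binds syntaxin and holds back SNARE assembly, had 6 and 6 reads after crush and was listed at 0 in both sham libraries. It was at least 1.75-fold higher in SRPBM taking 3 reads per library as the floor. Its unadjusted p of 0.00940 was the smallest of the 17 tested hosts, and it did not pass (adjusted p = 0.0836, edgeR). Stxbp5 met the read filter through the crush libraries alone, where it was high. The adjusted p was 0.0151 without sham replicate 2, in a fit that called 24.3% of all hosts tested. It was 0.186 without sham replicate 1, 0.243 with DESeq2, 0.168 when the filter asked for 2 reads and 0.602 with the replicate number as a block. The reads came from 3 exonic circles of chromosome 1: 3941650 to 3949063 (3 and 2 reads), 3941650 to 3964233 (3 and 2) and 3890868 to 3949063 (0 and 2). The syntaxin genes Stx5, Stx8 and Stx17 and the syntaxin-binding Stxbp3 had 2 or 3 reads each, in 1 library.

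The remaining roles had few reads and no host that could be tested. The tethers Exoc6 and Cog5 had 4 and 3 reads in crush libraries, against 2 and 9 in sham libraries. The endosomal lipid kinase Pikfyve and the autophagy scaffold Wdfy3 had 5 and 4 against 4 and 3, and Pikfyve had 2 to 4 reads in every library over 5 circRNAs. Ehbp1 and Ehbp1l1, linkers of EHD proteins to actin, had 2 and 4 against 0 and 8.

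**Figure D4:**
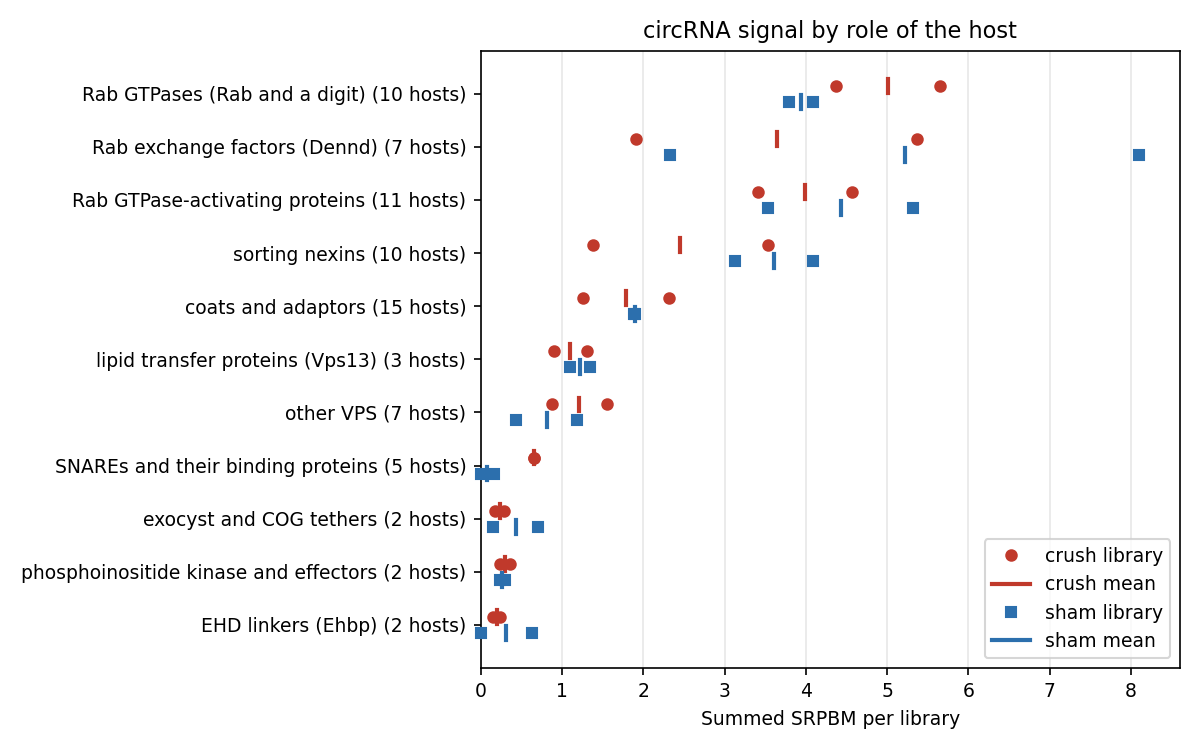
Summed SRPBM of the circRNAs of each role, with 1 point per library and a bar at the mean of each group (n = 2). The DENN exchange factors range from 1.91 to 8.10 over the libraries, and the syntaxins with their binding proteins lie at 0.653 and 0.658 after crush against 0 and 0.157 after sham.

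More circRNAs were listed after crush, over all genes as well as among traffic hosts. Crush replicates 1 and 2 listed 73 and 76 traffic circRNAs and sham replicates 1 and 2 listed 50 and 66. The means were 74.5 ± 2.1 against 58.0 ± 11.3 (SD, n = 2). At the depth of the shallowest library the numbers were 73.0 and 69.2 against 46.0 and 63.3. The exact permutation p was 0.333 with and without this thinning, the lowest value possible here. Counting only circRNAs with 5 or more reads, the numbers were 12 and 10 against 11 and 17, so the excess lay among circRNAs with fewer reads. Over all genes, 1785 and 2022 circRNAs were listed after crush and 1704 and 1711 after sham. At the depth of the shallowest library these were 1785 and 1862 against 1587 and 1631. Traffic circRNAs were 4.09% and 3.76% of all those listed after crush and 2.93% and 3.86% after sham, and these ranges overlapped.

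Of the 74 hosts, 26 (35.1%) were listed in crush libraries only and 14 (18.9%) in sham libraries only, beside 33.9% and 28.9% of all 2327 hosts. Hosts listed in both crush libraries and in no sham library were Ap3s1, Sec23ip, Stxbp5, Tbc1d8 and Wdfy3, which is 5 of 74 or 6.76%. The reverse held for Cog5, which had 2 and 4 reads after sham, or 1.35%. The shares over all hosts are 6.27% and 4.94%. Among circRNAs, 95 of 192 were listed in crush libraries only, beside 43.9% of all 4942, and 65 in sham libraries only, beside 36.7%. Those listed in both libraries of a group and in none of the other were 9 for crush (4.69%, beside 4.51%) and 3 for sham (1.56%, beside 3.56%). Apart from Stxbp5 and Tbc1d8, the hosts named here had 2 to 4 reads in each library that listed them.

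Traffic hosts gave more circRNAs per gene than the other hosts, with 2.59 against 1.78. Of the 74, 10 (13.5%) gave 5 or more, against 5.50% of the 2253 other hosts, and 35 (47.3%) gave 1, against 62.7%. Traffic hosts also had more junction reads per host, with 16.3 against 12.2, and the part of read depth in these shares was not tested. Exonic circles made up 89.6% of the traffic circRNAs and 88.6% of the others. The median exonic circle spanned 11021 bases of genome, introns included, against 8766 for other hosts, with quartiles of 4202 and 20828 against 3344 and 19217.

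Alternative back-splicing was frequent in hosts with more than 1 circRNA. Of 157 circRNAs of such traffic hosts, 74 (47.1%) shared their upstream edge with another circle of the host and 50 (31.8%) their downstream edge, against 41.6% and 32.5% of 2603 circRNAs of the other hosts. In all, 66.9% shared an edge, against 64.1%. Most circles were seen once, with 148 (77.1%) listed in 1 library and 9 (4.69%) in all 4, against 72.2% and 6.20% of the circRNAs of other hosts. The 9 came from Rab11a, Rab6a, Tbc1d5 (2 circles), Dennd4a, Dennd4c, Dennd1b, Vps13a and Vps54, and with 389 reads they held 32.3% of the traffic reads. In 2 hosts, Ehbp1 and Snx14, 1 short intronic circle was listed on the strand opposite to the host's other circles.

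Other genes of endocytosis and membrane traffic, from a list of 167 genes outside the rule, also had no host past the threshold. Of these, 53 were listed and 9 could be tested, 5 higher and 4 lower after crush, and 0 passed (edgeR), beside 2.3% of all hosts tested, with 3 of the 9 at an unadjusted p under 0.05, beside 25.6%. Their reads summed to 202 and 137 after crush and 142 and 136 after sham. Mtmr3, a phosphoinositide phosphatase gene, had 95 and 48 reads against 21 and 31 (log2 change 1.68 ± 0.50, adjusted p = 0.0836, edgeR). Agap1, an Arf GTPase-activating protein gene, had 5 and 16 against 23 and 22 (adjusted p = 0.400). Pik3c2a, a phosphoinositide kinase gene, had 10 and 7 against 14 and 8 (adjusted p = 0.935). Sbf2, a DENN-domain phosphatase-like gene mutated in a demyelinating neuropathy, had 6 and 4 against 14 and 11 (adjusted p = 0.330).

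Host genes that mark other cells differed between the groups in some lists and not in others. Of 20 neutrophil and macrophage genes 12 were listed, with 88 and 71 reads in crush libraries, against 0 and 2 in sham libraries, or 6.38 and 4.25 against 0 and 0.157 SRPBM, while those at 0 in every library included Itgb2, Il1r2, Fpr1, S100a8, S100a9, Adgre1 and Cd68. Of 10 skeletal muscle genes 5 were listed, with 76 and 84 reads in crush libraries, against 207 and 235 in sham libraries, nearly all from Mlip, and Ttn, Myh2, Myh4, Trdn and Actn2 were at 0. Of 16 Schwann cell genes 4 were listed, with 11 and 4 against 14 and 17 reads. Of these 46 reads 35 came from Sbf2, which is also on the wider traffic list, with 6 and 4 against 14 and 11. Those at 0 included Prx, Mag, Sox10, S100b, Ncam1, Erbb3, Egr2, Drp2 and Mtmr2 (another name on the list, Periaxin, is no gene symbol), so circRNA hosts mark the labelled tissue weakly. Of 6 endothelial genes 2 were listed, with 8 and 8 against 7 and 7 reads in sum, and these 2 went opposite ways. Of 6 fibroblast and perineurial genes 0 were listed. The part of these cells in the reads of Stxbp5, Rab31, Vps54, Dennd4a and the short Evi5 circle was not tested. These were higher after crush without overlap in reads, as were Rab11a, Evi5 summed over its circles, Tbc1d8 and others. On the TMM scale 33.9% of all hosts tested had both crush libraries above both sham libraries.

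**Figure D5:**
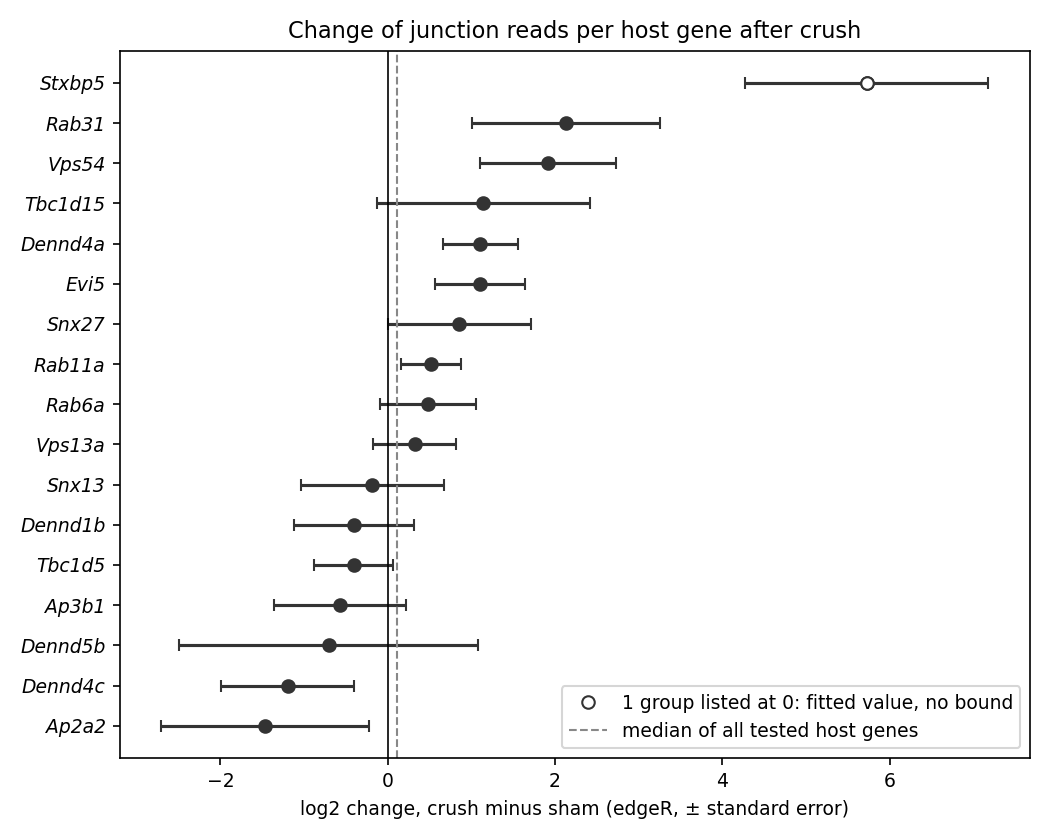
Log2 change, crush minus sham, with its standard error for the 17 tested traffic hosts (edgeR quasi-likelihood fit with TMM scaling, 2 libraries per group), with a dashed line at the median of all tested hosts, 0.11. None of the 17 passed the adjusted threshold, and the open point, Stxbp5, has both sham libraries at 0, so its fitted value is no bound.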

How the data were processed

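Per the labels' protocols, total RNA was column-extracted and made into paired-end libraries. CASAVA 1.8, BWA, edgeR and the build Rnor_6.0 are listed in the submitters' processing notes. For the circRNA caller, no name is given in the sources used. The authors deposited raw counts of junction reads per circRNA, and SRPBM, a signal equal, per the file headers and values, to the count times 1 constant per library (0.0725, 0.0598, 0.0729 and 0.0786 per read in crush replicates 1 and 2 and sham replicates 1 and 2).

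Counts of all circRNAs, and their sums per host, were tested in R 4.3.3 with edgeR 4.0.16 (TMM scaling over tested features, quasi-likelihood test, no replicate block), and with DESeq2 1.42.0 as an alternative. The edgeR test was also run on simulated counts of hosts and of circRNAs, and DESeq2 was not. The outcome of these runs is not given here, so the power of the test at these counts is left unstated. Log2 changes are crush minus sham ± SE, where the SE is derived as the absolute log2 change over the square root of the quasi-likelihood F. Folds against a group at 0 are bounds against 3 reads per library, in SRPBM. An upstream edge is the start on the plus strand and the end on the minus strand. Thinned numbers are means of 200 draws, with at least 2 reads required. Library totals and the caller's minimum of 2 reads limit precision. The filter of 5 reads in 2 libraries can be met by 1 group alone. Crush alone met it for Stxbp5, Vps54, the short Evi5 circle and the Dennd4a circles ending at 70347005 and 70352964. Sham alone met it for Ap2a2, the Dennd4c circle from 105185997 and the longer exonic Tbc1d5 circle from 1442054. Without sham replicate 2, crush alone also met it for Rab31 and Tbc1d15. Without crush replicate 2, sham alone met it for the Snx13 circle. Their entry to the test thus depended on the group with more reads.

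Named are hosts with at least 20 reads or an unadjusted p under 0.05, and their circRNAs with at least 10 reads or that p. Other hosts and circRNAs were named after their values were seen. Members and lists were chosen with earlier results of these data known. All 74 symbols matched a current RefSeq symbol (assembly GRCr8, names only). A few genes of the cell type lists are not reported here by name.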

Additional observations from a re-analysis of the deposited data

How the results depend on the processing

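With 2 libraries per group and mostly under 20 reads per host, precision is limited by depth and by circRNAs at 0 in 1 library. The 0 traffic hosts past the threshold (edgeR, 2 at an unadjusted p under 0.05) stayed 0 under every normalization, filter and tool run, and were 0 to 3 with 1 library left out. The 0 traffic circRNAs became 1 with RLE size factors and 1 with SRPBM library totals, both times the short Evi5 circle, and were 0 to 2 with 1 library left out, a fit that assumes the lone library varies like the other group. With the replicate number as a block, 0 hosts and 0 circRNAs passed, beside 5.53% of all 434 hosts and 0% of all 428 circRNAs. The filter of 2 reads called 0 of all 1125 hosts and 0 of all 1355 circRNAs. Those 0 values are thus not particular to traffic members. The fits with RLE size factors and SRPBM library totals called 14% and 13.8% of all 428 circRNAs. With 1 library left out, the 3 hosts came without sham replicate 2, beside 24.3% of all 345 hosts tested. The 2 circRNAs came without sham replicate 1, beside 23.8% of all 320. Without crush replicate 2 only the Snx13 circle was called, beside 1.88%. Whether traffic members differed from these shares was not tested. The filter of 10 reads called 23.4% of all 188 hosts and 13.9% of all 165 circRNAs, and 0 of the 10 hosts and 5 circRNAs of traffic. Same-numbered libraries did not deviate together (correlation of replicate differences -0.06 over hosts and -0.11 over circRNAs). The crossed pairing, chosen after seeing the data, also gave 0 and 0, as it did over all hosts and all circRNAs tested.

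The difference in the share of reads (0.31 percentage points) moved by less than the replicate SD under each alternative, from -0.18 to 0.80 with 1 library left out, and was 0.51 without the Dennd5b and Snx13 circles, an alternative added after seeing the data. The difference in listed circRNAs (16.5) was -3 with at least 5 reads required, and 8.5 to 24.5 with 1 library left out.

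Of 168 alternative values for the 15 named hosts, 6 changed sign: Vps13a with SRPBM totals (-0.081), and, with 1 library left out, Snx13 (-2.31 to 0.77), Dennd5b (-1.90 to 0.50), Ap3b1 (-1.62 to 0.25), Dennd1b (-0.80 to 0.16) and Snx27 (-0.015 to 2.11). Of 109 for circRNAs, 5 did, all with 1 library left out: the circle of Snx13 (-7.57 to 0.74), that of Dennd5b (-1.74 to 0.51), the main one of Tbc1d5 (-0.70 to 0.24), the longer one of Dennd4c (-1.37 to 0.51) and that of Dennd4a ending at 70367391 (-0.20 to 1.42). Where a sign turned on 1 library, the cause was not tested.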
